A study of Mus musculus with 6 samples.

Results

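The CC chemokines described here are 10 genes, Ccl2, Ccl3, Ccl4, Ccl5, Ccl6, Ccl7, Ccl8, Ccl9, Ccl11 and Ccl12, which were taken by name from the 36047 genes of the count tables. All 10 were found, and all 10 passed the filter on low counts that left 20094 genes for testing. RNA of the infarct area was sequenced from 3 mice that received LGK974 and 3 mice that received only its DMSO vehicle. All were female C57BL6 mice, 12 weeks old by the labels, with ischemia/reperfusion (I/R) injury, and tissue was taken 48 h after the injury. By the study's methods, gavage began right after surgery and was repeated daily, with the same citrate buffer for the controls. LGK974 inhibits Porcupine, the enzyme Wnt proteins need in order to be secreted, and the comparison asks which transcripts differ in the infarct when Wnt secretion is blocked. Since both groups had I/R injury, the values compare treated with vehicle-treated infarcts and not injured with uninjured heart.

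CC chemokines are small secreted proteins named for a pair of adjacent cysteines near the start of the mature protein. They bind to matrix and endothelium, act on G protein-coupled CC receptors of leukocytes and so direct the entry of these cells into injured tissue. In the infarcted heart, Ccl2 and its relatives are known for drawing monocytes through Ccr2, whereas Ccl3, Ccl4, Ccl5, Ccl6 and Ccl9 act through other receptors such as Ccr1, and Ccl11 through Ccr3, the receptor of eosinophils.

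The 10 genes are all protein-coding and all lie on chromosome 11 of GRCm38 in 2 clusters. On the plus strand, Ccl2 (82035571 to 82037453), Ccl7 (82045712 to 82047525), Ccl11 (82057823 to 82062955), Ccl12 (82101845 to 82103400) and Ccl8 (82115185 to 82116799) follow each other. The other cluster begins 1408978 bases further on and holds Ccl5 (83525778 to 83530518), Ccl9 (83572919 to 83578636), Ccl6 (83587882 to 83593087) and Ccl3 (83647844 to 83649355) on the minus strand and Ccl4 (83662584 to 83664683) on the plus strand. The sequences that follow, of 9 of the genes, show what makes these genes one family and how far they nonetheless differ, which matters because reads were assigned by sequence. Each is a stretch of 30 bases of the annotated coding sequence, 5′ to 3′, of the transcript whose name ends in 201, with the codons of the adjacent cysteines in capitals.
Ccl2: gccccactcaccTGCTGCtactcattcacc
Ccl7: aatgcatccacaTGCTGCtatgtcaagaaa
Ccl12: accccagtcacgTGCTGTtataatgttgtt
Ccl8: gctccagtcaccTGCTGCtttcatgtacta
Ccl11: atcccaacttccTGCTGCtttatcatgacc
Ccl6: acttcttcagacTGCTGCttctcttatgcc
Ccl9: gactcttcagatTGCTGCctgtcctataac
Ccl4: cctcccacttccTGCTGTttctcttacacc
Ccl5: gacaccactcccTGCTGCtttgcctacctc
The pair of cysteine codons occurred 1 time in each coding sequence, in exon 3 of 4 in Ccl6 and Ccl9 and in exon 2 of 3 in the others. Outside it the bases diverge. The closest pair of coding sequences, Ccl2 and Ccl7, were identical at 72.1% of 287 aligned bases, followed by Ccl3 and Ccl4 with 71.1% of 270, while Ccl6 and Ccl9 reached 70.7% of 341. No stretch of 31 bases, the default word length of Kallisto, was shared between a listed gene and another CC chemokine. Words shared with genes outside the family were 0% of those of Ccl2, Ccl3, Ccl4, Ccl7, Ccl8 and Ccl12, and at most 3.52%, in Ccl9, whose long transcript shared 106 words with 767 genes. Exons of the 10 genes overlapped no exon of another gene.

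Promoter sequences of RefSeq (GRCm38.p6, 250 bases before to 50 after the gene start) were matched for 5 of the 10 genes: Ccl3, Ccl6, Ccl8, Ccl9 and Ccl12. Those of Ccl12 (chr11:82101595-82101894, plus strand), its neighbour Ccl8 (chr11:82114935-82115234, plus strand) and Ccl9 (chr11:83578587-83578886, minus strand) are shown because they hold a TATAAA match, which those of Ccl3 and Ccl6 do not. Capitals mark matches on either strand to TATAAA, the AP-1 site TGANTCA, the C/EBP site TTNNGNAA, the interferon-stimulated response element (ISRE) or the NF-kB consensus.
Ccl12: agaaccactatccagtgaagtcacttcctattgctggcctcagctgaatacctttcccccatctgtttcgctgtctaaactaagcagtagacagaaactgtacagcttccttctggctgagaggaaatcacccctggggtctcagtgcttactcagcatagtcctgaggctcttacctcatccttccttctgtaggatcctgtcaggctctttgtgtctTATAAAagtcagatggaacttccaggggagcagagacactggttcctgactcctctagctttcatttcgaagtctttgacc
Ccl8: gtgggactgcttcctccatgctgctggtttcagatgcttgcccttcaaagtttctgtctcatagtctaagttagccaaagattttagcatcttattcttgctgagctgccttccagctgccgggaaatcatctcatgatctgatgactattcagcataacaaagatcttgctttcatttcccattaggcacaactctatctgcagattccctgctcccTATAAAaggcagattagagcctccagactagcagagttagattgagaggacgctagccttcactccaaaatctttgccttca
Ccl9: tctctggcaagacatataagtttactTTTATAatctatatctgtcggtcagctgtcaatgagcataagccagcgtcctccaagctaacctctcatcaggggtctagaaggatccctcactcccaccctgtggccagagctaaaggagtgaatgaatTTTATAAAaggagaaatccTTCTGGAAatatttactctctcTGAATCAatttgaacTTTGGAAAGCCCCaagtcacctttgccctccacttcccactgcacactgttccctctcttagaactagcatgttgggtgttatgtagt
In Ccl12 and Ccl8, TATAAA began 31 and 32 bases before the gene start, and these promoters held no other match. TATAAA was present in 3 of the 5 promoters and in 13.6% of 32851 RefSeq promoters of this length. The Ccl9 promoter held a match to each motif but the ISRE, and the NF-kB match, 35 bases before the start, overlapped a TTNNGNAA match. Among all promoters, 4.51% held the NF-kB consensus, 7.81% TGANTCA 40.7% TTNNGNAA and 3.44% the ISRE. The Ccl3 promoter held 1 match to TTNNGNAA and that of Ccl6 none to any motif. A match describes the letters of the sequence and does not show a site in use.

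The libraries held 41579787 to 80398211 estimated counts, of which 28.2 to 53.7% were on mitochondrial genes. DMSO replicate 1 stood apart. A set of 1501 olfactory, vomeronasal and bitter taste receptor genes was treated here as silent in heart, which was not tested gene by gene. Of these, 99.3% had counts in that library against 59.8 to 88.3% in the others. Their median was 32.1 counts per kb of transcript against 3.01 to 11.6. The counts of CC chemokines and of the gene lists were therefore also taken without this library. The labels give no batch, and p-values measure the spread between these libraries. In bulk tissue, fewer cells of a type and less RNA per cell cannot be told apart.

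All 10 CC chemokines had a fitted level above that of DMSO in the LGK974 mice, where 40.5% of all tested genes did. Values are reads per 1e+06 library reads (CPM) scaled with TMM, a method that corrects library sizes for the genes that dominate a library, and a log2 fold change of 1 is a doubling. The median log2 fold change was 1.03 over the 10 genes and −0.13 over all tested genes. In 8 of the 10 genes every LGK974 mouse lay above every DMSO mouse, which was the case in 10.7% of all tested genes, with 7.27% separated downward and 18% in either direction. Without DMSO replicate 1 these were again 10 of 10 higher, where 47.9% of all tested genes were, and 8 of 10 separated upward, where 15.1% of all genes were. An unadjusted p-value under 0.05 in edgeR's quasi-likelihood test was reached by 6 of the 10 genes (Ccl2, Ccl6, Ccl7, Ccl8, Ccl9 and Ccl12), all higher with LGK974, against 6.26% of all tested genes in that direction and 7.18% in the other. This number was 7 without DMSO replicate 1, against 7.12% of all genes then tested. Over the fits that each left out 1 mouse it was 5 to 7, against 3.23 to 9.14% of all genes tested in that direction.

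After Benjamini-Hochberg adjustment over all 20094 genes, edgeR's test called 0 of the 10 genes and 0 genes in all (0%), with 2699 genes (13.4%) at an unadjusted p-value under 0.05. DESeq2 called 4 of the 10, Ccl2, Ccl7, Ccl9 and Ccl12, all higher with LGK974, where it called 0.985% of 22238 genes in that direction and 1.42% in either. Its adjusted p-values were 0.00197 for Ccl7, 0.00282 for Ccl12 and 0.0056 for both Ccl2 and Ccl9. Without DMSO replicate 1, DESeq2 called 4 as well, of 326 genes in all. The genes tested differed between these fits along with the tool, and edgeR without the filter on low counts called 5 of the 10 and 1206 genes in all. For that fit, and for DESeq2 without DMSO replicate 1, the share of all tested genes was not taken.

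**Figure D1:**
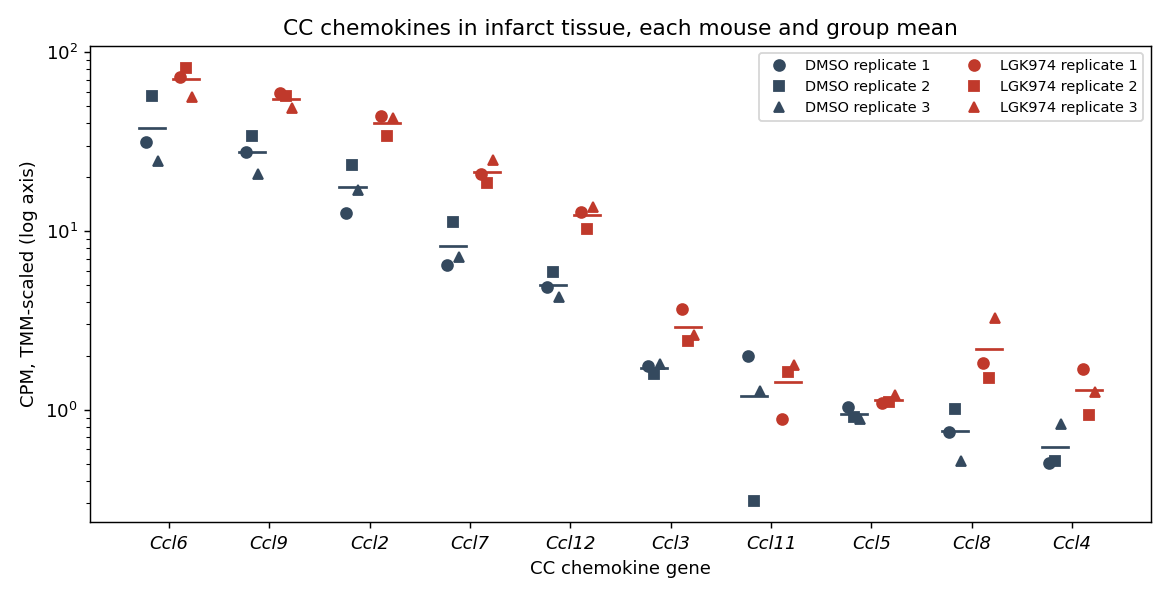
CPM (log axis) of each CC chemokine in each mouse, DMSO in dark blue and LGK974 in red, with a marker shape per replicate number and a bar at the group mean. The groups are separated in every gene but Ccl6 and Ccl11, and 5 genes lie well above the other 5.

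The Ccr2 ligands Ccl2, Ccl7 and Ccl12, which attract inflammatory monocytes, were more than doubled on average. Ccl2, also called monocyte chemoattractant protein-1, was at 44.1, 34.2 and 43.0 CPM in LGK974 replicates 1, 2 and 3 and at 12.6, 23.4 and 16.9 CPM in DMSO replicates 1, 2 and 3. The lowest LGK974 mouse thus lay above the highest DMSO mouse. The group means were 40.4 ± 5.42 CPM with LGK974 and 17.6 ± 5.46 CPM with DMSO (SD, n = 3 each). This gave a log2 difference of 1.20 (standard error 0.241, unadjusted p = 0.00123, adjusted p = 0.368 with edgeR). Ccl7, which lies next to Ccl2, was at 20.8, 18.5 and 24.9 CPM with LGK974 and at 6.43, 11.2 and 7.12 CPM with DMSO. As for Ccl2, DMSO replicate 2 was the highest control and still below all treated mice. The log2 fold change of Ccl7 was 1.38 (standard error 0.246, unadjusted p = 0.000574).

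Ccl12, a mouse Ccr2 ligand, had the smallest p-value of the family and the 13th smallest of all tested genes. Its level was 12.8, 10.2 and 13.6 CPM with LGK974 against 4.83, 5.90 and 4.27 CPM with DMSO. Here the controls lay close together and the groups were far apart. The log2 fold change was 1.29 (standard error 0.213, unadjusted p = 0.000341). In the fits that each left out 1 mouse, the log2 fold changes were 1.02 to 1.44 for Ccl2, 1.25 to 1.65 for Ccl7 and 1.24 to 1.47 for Ccl12, and the unadjusted p-value stayed under 0.05 in each of these fits for each of the 3 genes.

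Ccl8 and Ccl11 belong to the same cluster but were expressed far less. Ccl8, which in mice acts mainly on Ccr8, was at 1.81, 1.51 and 3.27 CPM with LGK974 and at 0.754, 1.01 and 0.516 CPM with DMSO. The groups did not overlap, but LGK974 replicate 3 stood above the other treated mice. Its log2 fold change of 1.53 was the highest of the 10 and had a standard error of 0.519 (unadjusted p = 0.0194). Without LGK974 replicate 3 it was 1.20, with an unadjusted p-value of 0.0937. Ccl11, the eosinophil attractant eotaxin, was at 0.884, 1.62 and 1.79 CPM with LGK974 and at 1.99, 0.310 and 1.28 CPM with DMSO. The highest and the lowest of the 6 mice were both controls. The log2 fold change of 0.27 (standard error 0.705, unadjusted p = 0.717) was smaller than the spread between mice, and it was 0.85 without DMSO replicate 1 and −0.21 without DMSO replicate 2.

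Ccl6 and Ccl9, neighbouring genes for Ccr1 ligands that myeloid cells express, were together with Ccl2 the genes with the most counts. Ccl6 was at 72.9, 81.9 and 56.0 CPM with LGK974 and at 31.5, 57.1 and 24.5 CPM with DMSO. DMSO replicate 2 reached just above LGK974 replicate 3, so the groups overlapped by this pair of mice. The log2 fold change of 0.90 (standard error 0.32, unadjusted p = 0.0238) was 1.31 without DMSO replicate 2, and the unadjusted p-value was 0.0622 without LGK974 replicate 1 and 0.0575 without LGK974 replicate 2. Ccl9 was at 59.1, 56.8 and 48.6 CPM with LGK974 and at 27.8, 34.0 and 20.7 CPM with DMSO. In this gene the groups did not overlap, and the spread within each was small. Its log2 fold change was 0.99 (standard error 0.208, unadjusted p = 0.0015), with 0.92 to 1.16 when 1 mouse was left out.

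**Figure D2:**
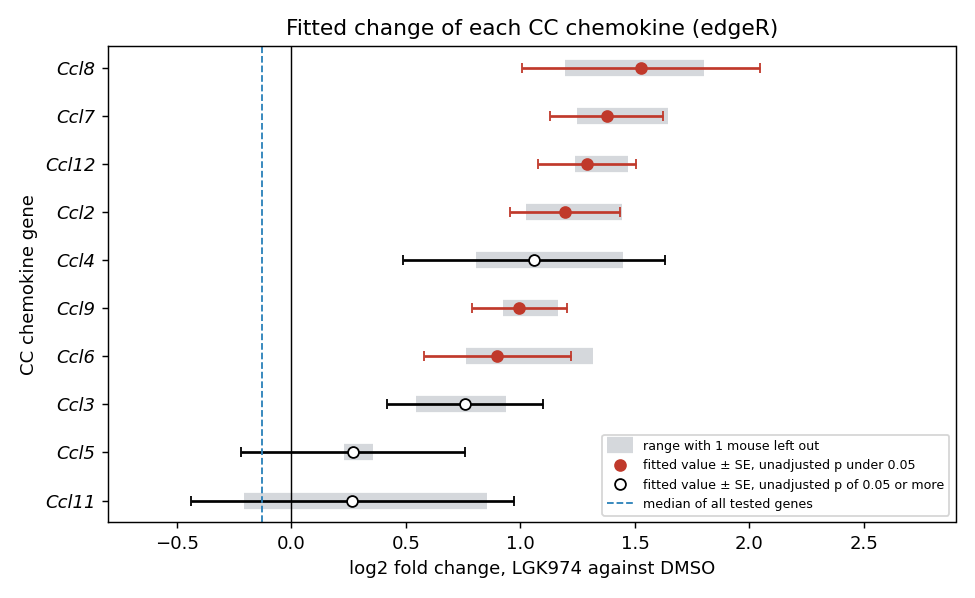
Fitted log2 fold change of each CC chemokine with its standard error, the range over the fits that each left out 1 mouse in grey, and the median of all tested genes as a dashed line. The 10 values run from 0.27 for Ccl11 to 1.53 for Ccl8, and the grey range of Ccl11 alone crosses 0.

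The inflammatory chemokines Ccl3, Ccl4 and Ccl5 were expressed at low levels and their differences were not past an unadjusted p-value of 0.05. Ccl3, or macrophage inflammatory protein-1 alpha, was at 3.64, 2.43 and 2.63 CPM with LGK974 and at 1.76, 1.59 and 1.79 CPM with DMSO. The controls were nearly equal and below every treated mouse, and the log2 fold change was 0.76 (standard error 0.341, unadjusted p = 0.0581). Without DMSO replicate 1 its unadjusted p-value was 0.043. Ccl4, or macrophage inflammatory protein-1 beta, was at 1.68, 0.933 and 1.25 CPM with LGK974 and at 0.503, 0.517 and 0.835 CPM with DMSO. The groups were again separate, on 20 to 34 counts in the DMSO libraries and 50 to 143 in the others, and the log2 fold change of 1.06 had a standard error of 0.571 (unadjusted p = 0.102). With the level of the silent receptor genes subtracted from each library, it was 1.67.

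Ccl5, a chemokine made by T cells, platelets and macrophages, showed nearly equal totals. It was at 1.10, 1.10 and 1.21 CPM with LGK974 and at 1.03, 0.910 and 0.884 CPM with DMSO. Although no value of one group reached the other, the log2 fold change was 0.27 (standard error 0.488, unadjusted p = 0.599). Its 2 annotated transcripts differed in opposite directions. Ccl5-201, the protein-coding transcript of 3 exons, was at 0.823, 0.785 and 1.04 CPM with LGK974 and at 0.148, 0 and 0.494 CPM with DMSO. Ccl5-202 is annotated as a transcript with a retained intron, since its exon 2 (83528728 to 83529267) runs on past the end of exon 2 of Ccl5-201 at 83529156. It was at 0.319, 0.318 and 0.155 CPM with LGK974 and at 0.861, 0.892 and 0.395 CPM with DMSO.

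The coding transcript held 72.3, 71.6 and 87.5% of the Ccl5 counts in the LGK974 libraries and 14.5, 0 and 56.8% in the DMSO libraries. The difference of 53.3 percentage points had p = 0.1 in an exact two-sided permutation test, the smallest value that 3 mice against 3 allow. In edgeR's test over 59297 transcripts, which was chosen after these values were seen, the log2 fold changes were 2.04 for Ccl5-201 (standard error 1.32, unadjusted p = 0.167) and −1.43 for Ccl5-202 (standard error 0.738, unadjusted p = 0.0946). The former was 3.57 without DMSO replicate 3 and 1.45 without DMSO replicate 2. Both rest on few reads, at most 67.4 estimated counts for Ccl5-201 and at most 44 for Ccl5-202. The 2 transcripts share 212 words of 31 bases, with 290 found only in Ccl5-201 and 426 only in Ccl5-202. Per kb, Ccl5-202 lay at 1.63 times the silent receptor genes in DMSO replicate 1 and at 3.52 to 7.74 times in the others. Ccl5-201 lay at 0.349 times in DMSO replicate 1, at 0 in DMSO replicate 2 and at 11.5 to 41.3 times in the others. The part of unspliced RNA or background reads in this transcript was not tested.

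**Figure D3:**
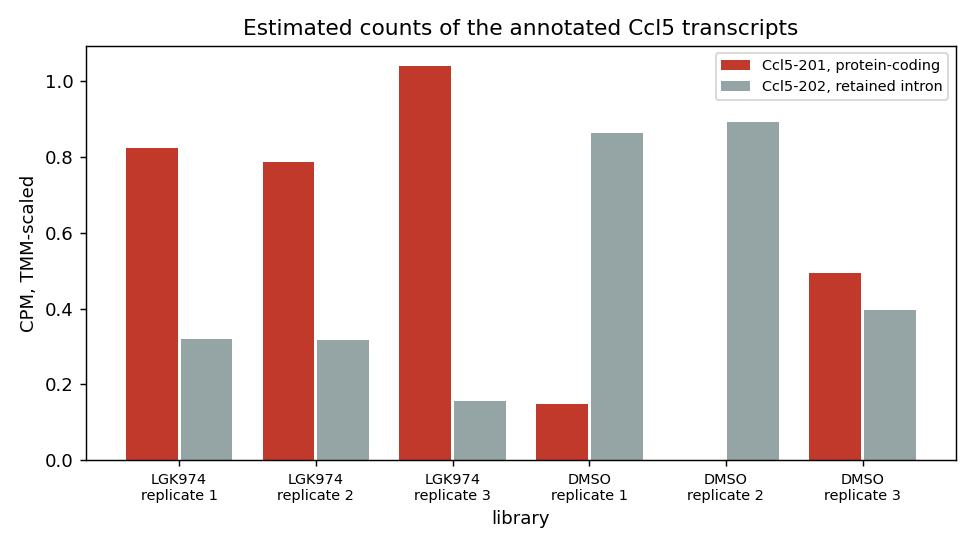
CPM of the protein-coding transcript Ccl5-201 (red) and of Ccl5-202, annotated with a retained intron (grey), in each library. Ccl5-201 is the taller bar in the 3 LGK974 libraries and in DMSO replicate 3, and is at 0 in DMSO replicate 2.

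In the other genes with several annotated transcripts the coding one prevailed. It held 94.9% of all counts of Ccl2, 94.7% of those of Ccl12, 96.1% of those of Ccl9 and 98.9% of those of Ccl6. In the test over transcripts, the coding transcripts of Ccl2, Ccl7, Ccl9 and Ccl12 had log2 fold changes of 1.22, 1.41, 1.04 and 1.39. Each had an unadjusted p-value under 0.05, which 3.24% of transcripts reached in this direction. Those of Ccl6 and Ccl8 reached it too, and those of Ccl3, Ccl4, Ccl5 and Ccl11 did not. Since the coding transcripts of Ccl2, Ccl7, Ccl9 and Ccl12 hold most counts of their genes, their values repeat the gene-level ones and are no separate support. After adjustment 0 transcripts (0%) passed in edgeR's test, with 3144 at an unadjusted p-value under 0.05.

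How far the genes stood above the background of their library differed. Relative to the median count per kb of the silent receptor genes of the same library, Ccl2, Ccl6, Ccl7, Ccl9 and Ccl12 lay at 152 to 816 times in the LGK974 libraries and at 9.95 to 229.9 times in the DMSO libraries. In DMSO replicate 1 the low genes came close to the silent genes, with 0.944 times for Ccl4, 1.83 for Ccl8, 1.91 for Ccl5, 2.27 for Ccl11 and 2.84 for Ccl3. Ccl11 was also near that level in DMSO replicate 2, at 1.20 times. With this background subtracted, the log2 fold changes of the 5 abundant genes were 0.72 for Ccl6, 0.84 for Ccl9, 1.06 for Ccl2, 1.14 for Ccl12 and 1.24 for Ccl7. The unadjusted p-value was under 0.05 in 5 of the 10 genes, all higher, and in 2304 genes of either direction. The number of genes tested in this fit was not recorded, so no share is given beside it. Ccl6 was the gene that no longer passed (unadjusted p = 0.0742).

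**Figure D4:**
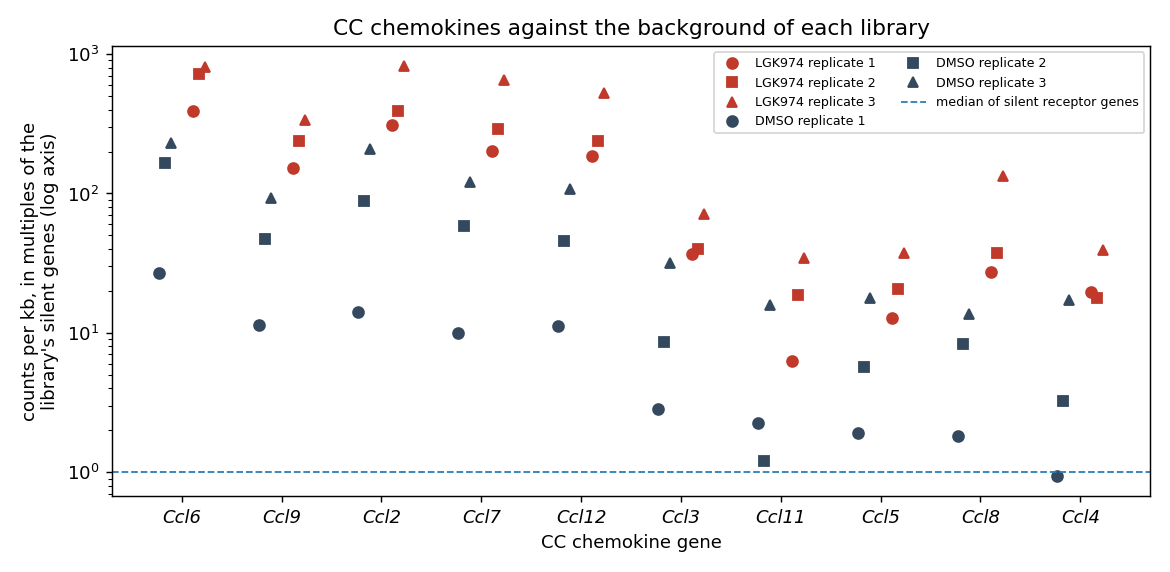
Counts per kb of transcript of each CC chemokine in each library, divided by the median of the silent receptor genes of that library (log axis), with a dashed line at 1. In DMSO replicate 1 (dark blue circles) the 5 low genes lie between 0.944 and 2.84, while the 5 abundant genes lie at 9.95 or more.

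Between genes, levels were compared with TPM, which accounts for transcript length. Ccl2 and Ccl6 held the first and the second place in all 6 libraries. Mean TPM was 72.3 ± 35.0 for Ccl2 and 60.1 ± 13.7 for Ccl6 with LGK974 and 24.5 ± 10.6 and 27.0 ± 13.9 with DMSO (SD, n = 3 each). Their order differed between mice of both groups, and their values overlapped. Ccl7, Ccl9 and Ccl12 took places 3 to 5 in each library, again with overlap. A gap followed: the fifth and the sixth gene did not overlap in either group, with a mean log2 ratio of 2.11 ± 0.439 with LGK974 (Ccl9 over Ccl8) and of 2.14 ± 0.51 with DMSO (Ccl7 over Ccl3; SD over 3 mice). Below the gap neighbours overlapped in both groups, with Ccl11 last in 5 of the 6 libraries.

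The 5 abundant genes together made up 90.8 to 92.8% of the TPM of the family with LGK974 and 88.6 to 93.6% with DMSO. The share of Ccl2 was 24.5 to 27.9% with LGK974 and 20.8 to 28.3% with DMSO, and that of Ccl6 was 18.6 to 29.9% and 21.7 to 31.8%. Ccl7 took a larger share in every LGK974 mouse, 13.6 to 16.4% against 10.96 to 12.5%. No such separation was seen for Ccl2, Ccl6, Ccl9 or Ccl12. For scale, the groups were separated in CPM, in either direction, in 18% of all tested genes. The difference in shares was not tested.

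By position, the 5 genes of the cluster that begins with Ccl2 had a median log2 fold change of 1.29 and the 5 of the cluster that begins with Ccl5 one of 0.90. Values ran from 0.27 to 1.53 in the former and from 0.27 to 1.06 in the latter. Ccl11 lies between Ccl7 and Ccl12, 10297 bases from the one and 38889 from the other, and had the lowest mean TPM of the family. Its log2 fold change of 0.27 lay below theirs but had a standard error of 0.705. It ran from −0.21 to 0.85 with 1 mouse left out. The difference between the clusters was not tested.

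**Figure D5:**
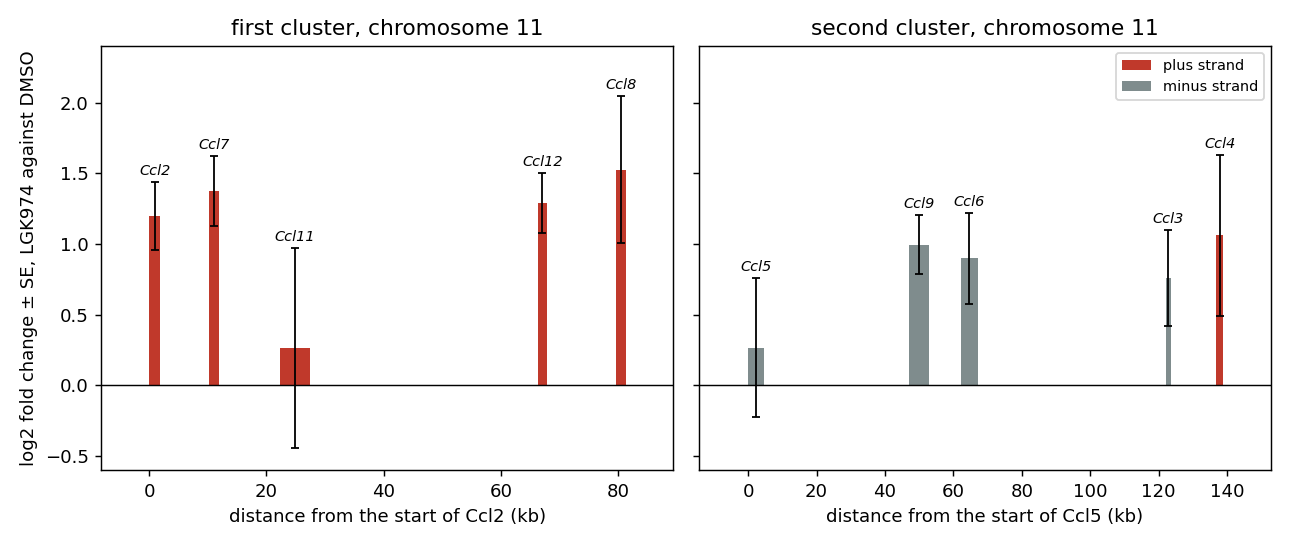
Log2 fold change (bar from 0, with its standard error) of each CC chemokine at its place in the 2 clusters of chromosome 11, as distance in kb from the start of the cluster's leftmost gene; bar width is the gene's length and colour its strand. Ccl11 and Ccl5 are at 0.27, with standard errors of 0.705 and 0.488, and the other genes lie between 0.76 and 1.53.

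Mice did not rank alike over the family. Of the controls, DMSO replicate 2 was the highest in 6 of the 10 genes, among them Ccl2, Ccl6, Ccl7, Ccl9 and Ccl12, and DMSO replicate 3 the lowest in 5. Of the treated mice, LGK974 replicate 2 was the lowest in 6 genes but the highest in Ccl6. Summed over the 10 genes, levels were 196 to 219 CPM with LGK974 and 78.8 to 136 CPM with DMSO. The median log2 fold change of the 10 genes was 0.89 to 1.24 with 1 mouse left out.

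Of 14 further CC chemokine genes, 9 were tested, 3 of them higher (Ccl17, Ccl21a and Ccl21b) and 6 lower with LGK974, with a median log2 fold change of −0.19. With DMSO replicate 1 left out, 4 were higher, with a median of −0.03. Ccl17, named after its values were seen, had a log2 fold change of 0.997 (standard error 0.821) with overlap between the groups. Ccl28, an epithelial chemokine, was the only one with an unadjusted p-value under 0.05, at 1.71 ± 0.477 CPM with LGK974 and 3.95 ± 2.20 with DMSO (SD, n = 3 each), and its highest value, 6.38 CPM, was that of DMSO replicate 1. Its log2 fold change was −1.20 and, without that library, −0.65, where 0 of the 9 genes had an unadjusted p-value under 0.05. Ccl24, another ligand of Ccr3, was lower in every LGK974 mouse, at 0.424 to 0.858 against 0.884 to 1.56 CPM, with an unadjusted p-value of 0.147. Ccl21a, a lymphoid chemokine with near-identical copies between which reads are divided, had a log2 fold change of 0.57 (standard error 0.404), which was 0.09 without LGK974 replicate 2. Ccl1, Ccl20, Ccl21c, Ccl26 and Ccl27b did not pass the filter, and Ccl21c and Ccl27b were listed at 0 in all libraries.

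Among 15 CC receptor genes, 13 were tested, with a median log2 fold change of 0.04, 1 of them higher and 1 lower at an unadjusted p-value under 0.05. Of all tested genes, 6.26% were higher and 7.18% lower at that level. Without DMSO replicate 1, 3 receptor genes were higher, against 7.12% of all genes then tested, and 1 was lower. The median was 0.27 in that fit and −0.37 without LGK974 replicate 3. Ccr1, a receptor of Ccl3, Ccl5, Ccl6, Ccl7 and Ccl9, was at 12.6, 9.22 and 16.3 CPM with LGK974 and at 6.66, 7.16 and 5.11 CPM with DMSO, with no overlap. Its log2 fold change was 1.01 (standard error 0.256, unadjusted p = 0.00457). Ccrl2, a receptor-like protein that binds chemerin, was lower, at 1.83 to 2.04 against 3.12 to 4.86 CPM (log2 fold change −0.94, standard error 0.32, and −0.59 without DMSO replicate 3). Ccr2, the receptor of Ccl2, Ccl7 and Ccl12, overlapped between the groups, at 16.5, 13.3 and 39.8 CPM with LGK974 and 13.8, 13.7 and 7.34 CPM with DMSO (unadjusted p = 0.0529). LGK974 replicate 3 was the highest by far, and without it the log2 fold change of Ccr2 was 0.44, against 1.0003 with all 6 mice. Ccr3 was near the silent receptor genes, at 0.102 to 3.69 times their level.

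Of 20 genes of the signaling chain below these receptors, 11 were higher with LGK974 at an unadjusted p-value under 0.05 and 0 lower, with a median log2 fold change of 0.52. Of all tested genes, 6.26% were higher and 7.18% lower at that level. The number of the 20 genes that were higher was 10 without DMSO replicate 1 and 7 without LGK974 replicate 3. The shares of all genes then tested were 7.12 and 3.23%. Among the listed genes with the smallest p-values were Pik3r5, a regulatory subunit of PI3-kinase gamma, and Dock2, which activates Rac in migrating leukocytes. Their log2 fold changes were 0.68 (standard error 0.161) and 0.79 (0.221).

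Markers of cell types were read beside these results. All 16 monocyte and macrophage markers, 1 of them Ccr2, were higher with LGK974, where 40.5% of all tested genes were. Of the markers 10 were higher at an unadjusted p-value under 0.05, against 6.26% of all tested genes. Their median log2 fold change was 0.81. These values were 16, 12 and 0.79 without DMSO replicate 1, where the shares of all genes were 47.9 and 7.12%. The summed level of the markers was 662 to 799 CPM with LGK974 and 314 to 459 CPM with DMSO, without overlap. Lyz2, Adgre1 and Cd68 had the smallest p-values, with log2 fold changes of 1.30, 0.88 and 1.06. Per 100 CPM of these markers, the 10 CC chemokines summed to 31.2, 31.6 and 24.6 CPM with LGK974 and to 28.4, 29.6 and 20.7 CPM with DMSO, so on this scale the groups overlapped. In the study's flow cytometry of whole hearts at the same time after injury, leukocytes and myeloid cells were reduced with LGK974. Inflammatory monocytes were significantly fewer there, and the difference in macrophages was not significant. Those are cell counts of the whole heart, whereas the values here are RNA of the infarct area. The part of the number of macrophages in the higher chemokine levels was not tested.

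The 9 fibroblast markers were all higher, 4 at an unadjusted p-value under 0.05, where 6.26% of all tested genes were. The summed level of the markers was 3485 to 5987 against 1700 to 2515 CPM, with a median log2 fold change of 0.59. Postn, Col3a1 and Col1a2 had the smallest p-values, with log2 fold changes of 1.56, 1.14 and 1.07. The values ran down to 0.13 for Pdgfra and 0.005 for Dcn, both named after their values were seen. Dcn was at −0.11 without DMSO replicate 1. Without DMSO replicate 1, 8 of the 9 were higher, with a median of 0.44. Of these 4 had an unadjusted p-value under 0.05, against 7.12% of all genes then tested in that direction. Of 10 neutrophil markers 5 were tested, with a median of 0.08 and 1 of them lower at an unadjusted p-value under 0.05. Without DMSO replicate 1, 0 were lower and 1 higher at that level. Ly6g, Retnlg, Camp, Ngp and Ltf did not pass the filter. T and NK cell markers had a median of −1.25 over 10 genes, none of them past an unadjusted p-value of 0.05, and their highest sum, 55.2 CPM, was in DMSO replicate 1, against 22.4 and 23.1 CPM in the other controls. Without that library the median was −0.16. B cell, dendritic cell and mast cell or eosinophil markers had medians of −0.19, −0.27 and −0.50, with summed levels that overlapped between the groups. These medians were 0.48, 0.28 and −0.40 without DMSO replicate 1. At an unadjusted p-value under 0.05, 1 dendritic cell marker and 1 mast cell or eosinophil marker were lower, where 7.18% of all tested genes were. Without DMSO replicate 1 these were 1 and 0. Endothelial markers had a median of 0.04 and cardiomyocyte markers one of −0.43, the latter with 1 of 10 higher and a sum of 39660 to 56630 CPM with LGK974 against 45390 to 62980 CPM with DMSO. The part of these cell types in the chemokine levels was not tested either.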

How the data were processed

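RNA of infarct tissue was measured in 6 libraries. The authors quantified transcripts with Kallisto on an Ensembl index of GRCm38 and deposited estimated counts and TPM of 118489 transcripts per library. The labels name both rRNA depletion and a capture kit, and the Kallisto version is not given in the sources used here. The estimated counts were joined to genes with GENCODE M21 (98.6% of transcripts, 99.6 to 99.7% of counts), summed and rounded. TPM values as deposited were summed per gene and used for levels between genes and for 1 alternative.

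Genes that reached 10 counts in 3 or more libraries were tested with edgeR 4.0.16 (quasi-likelihood, TMM, treatment only, R 4.3.3), with a Benjamini-Hochberg threshold of 0.05. Standard errors were taken from the F statistic. DESeq2 1.42.0, the study's tool, was an alternative. Sequences were compared with Biopython 1.88. The edgeR fits over genes and over transcripts were tested on simulated data. The members and gene lists were chosen with earlier results of these data known. All members were named, and of each other list up to 3 genes with the smallest p-values, plus receptors of the members. Some genes under this rule and 1 sequence are not reported here. The depth, 41579787 to 80398211 counts, limits mainly the low genes. Alternatives changed normalization, test, filter, background, counting unit, replicate block and samples.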

Additional observations from a re-analysis of the deposited data

How the results depend on the processing

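The direction of the 10 CC chemokine genes held under the alternatives that fitted genes in all 6 mice, and with 1 mouse left out it turned only for Ccl11, from 0.85 without DMSO replicate 1 to −0.21 without DMSO replicate 2. Under other normalizations, counts scaled from TPM and without mitochondrial genes, edgeR called 0 genes, and 6 of the 10 and 2423 to 2680 genes in all had an unadjusted p-value under 0.05. DESeq2 called 315 genes, 4 of them CC chemokines, with 4477 genes at an unadjusted p-value under 0.05 and a median log2 fold change of all genes of −0.75. Without a filter on low counts edgeR called 1206 genes, 5 of them CC chemokines, with 4790 at an unadjusted p-value under 0.05, on a median log2 fold change of all genes of −0.55. Chosen after the data were seen, DESeq2 called 326 genes without DMSO replicate 1, 4 of them CC chemokines, and 418 on counts less background, 3 of them CC chemokines. The median log2 fold change of all genes was −0.06 in the former and 0.02 in the latter. The cause of these shifts was not tested. Gene totals here count both directions. For the fits without a filter, on counts less background and with DESeq2 without DMSO replicate 1, the number of genes tested was not recorded. With 1 mouse left out edgeR called 0 to 2 genes (2 without DMSO replicate 1) and 0 of the 10, with 821 genes (without LGK974 replicate 3; 1526 without LGK974 replicate 1) to 4628 genes (without DMSO replicate 3) at an unadjusted p-value under 0.05 and a median log2 fold change of the 10 of 0.89 to 1.24.

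The replicate numbers occur in both groups but come from different mice, so the main fit did not take them as pairs. Deviations of same-numbered mice correlated at 0.475, −0.0482 and 0.391, and those of different-numbered mice at −0.136 on average. As the deviations were taken from group means, these values offset each other by construction. The average is thus no separate baseline. Whether same-numbered mice share a batch was not tested. With the replicate block, edgeR called 0 genes, and 3312 of the 20094 genes had an unadjusted p-value under 0.05, in either direction. Of the 10 CC chemokines 6 did, and the median log2 fold change of the 10 was 1.04.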

Other observations

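Genes that induce chemokines, and genes with a pattern over the libraries close to that of Ccl12, were read in the same libraries. Of 14 cytokine genes that induce chemokines, 9 were tested, 6 of them higher and 3 lower with LGK974, with a median log2 fold change of 0.42. The lower genes were Il1a, Il4 and Tslp, with log2 fold changes of −1.90, −1.04 and −0.08, on at most 54 counts. Il33, an alarmin of stromal cells, was at 19.5 ± 1.25 CPM with LGK974 and 10.8 ± 0.736 with DMSO (SD, n = 3 each). It was the only one with an unadjusted p-value under 0.05, where 6.26% of all tested genes were higher at that level. Tnf was at 1.70 to 2.49 against 1.06 to 1.21 CPM and Csf1, a growth factor of macrophages, at 55.7 to 73.3 against 36.4 to 53.4 CPM, both without overlap between the groups. Of the 9 genes 3 were separated upward, as were 10.7% of all tested genes. Il1b overlapped, at 0.914 to 3.88 against 0.517 to 1.38 CPM. Ifng, Ifnb1, Il13, Il17a and Csf2 did not pass the filter. Of 16 genes of NF-kB and AP-1, transcription factors that act on chemokine promoters, 13 were higher and 3 lower with LGK974, with a median log2 fold change of 0.28. Fos, Junb and Nfkb2 were higher at an unadjusted p-value under 0.05, by a log2 fold change of 0.93 for Fos (standard error 0.305), 0.93 for Junb (0.359) and 0.69 for Nfkb2 (0.278). Junb was at 0.60 without LGK974 replicate 3, and Nfkb2 at 0.46 without DMSO replicate 1 and at 1.10 without DMSO replicate 3. The number of genes at an unadjusted p-value under 0.05 was 1 without LGK974 replicate 2 or 3 and 2 without DMSO replicate 1 or 2. Of all tested genes, 6.26% were higher at that level with all 6 mice and 3.23 to 7.12% in these fits.

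The genes whose centred log2 CPM over the 6 libraries lay closest to that of Ccl12 were Msr1, a scavenger receptor of macrophages, with a root mean square distance of 0.0935, Evi2b with 0.103, Lilrb4a with 0.109, Cenpe with 0.132 and Nek2 with 0.144. Evi2b and Lilrb4a are expressed by leukocytes, and Cenpe and Nek2 act in mitosis. Msr1 was at 48.8, 37.9 and 49.6 CPM with LGK974 and at 20.0, 25.7 and 17.6 CPM with DMSO.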
